A study of Mus musculus with 13 samples.

Results

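Variable intergenic R-loop regions are stretches of mouse DNA between genes at which peaks of RNA/DNA hybrid signal were called in some libraries of a cell line and not in others. An R-loop forms when RNA pairs again with its DNA template and leaves the other DNA strand unpaired, mostly behind a transcribing polymerase. R-loops are best known at promoters and past the 3′ ends of genes, where polymerase continues beyond the cleavage site, and those between genes are less well described. The hybrids were mapped by DRIP-seq, in which the S9.6 antibody pulls hybrids out of genomic DNA cut by restriction enzymes and the recovered DNA is sequenced.

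The cells were N2a, an established mouse neuroblastoma line, transfected with scramble siRNA (siScramble) or with siRNA against DDX1, a putative RNA helicase (siDDX1), or EXOSC3, a cap subunit of the RNA exosome, the ribonuclease complex that processes and degrades nuclear RNA (siEXOSC3). Every group holds 3 untreated libraries, which the study's methods trace to separate plates, and 1 library whose genomic DNA was digested with RNase H, the enzyme that removes the RNA of a hybrid. No drug treatment and no genetic modification is named for these libraries apart from the siRNA, and the model is limited to transient depletion in 1 tumour line. The sample titles and the names inside the peak lists gave different treatments in 12 of 12 lists: the lists titled siScramble carry siDDX1 in their peak names, those titled siDDX1 carry siEXOSC3, and those titled siEXOSC3 carry siScramble. Groups below follow the titles, and what a pair of groups compares depends on that choice: by the peak names, siDDX1 against siScramble compares EXOSC3 with DDX1 depletion, and siEXOSC3 against siScramble compares the scramble control with DDX1 depletion. Tests over all 3 groups at once keep their values.

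Merging the peaks of the 9 untreated libraries gave 69497 regions. A region was taken as a member when it was under 5000 bases wide, was called in 2 to 8 of the 9 libraries, had its midpoint in no gene of the GENCODE vM1 annotation of build mm9, and lay more than 1 kb from every transcript start and from the 3′ end of every protein-coding gene. This gave 3343 members. They were 10.97% of the 30478 variable regions, which met the same limits on width and libraries at any place in the genome. The others included 17055 regions in introns, 5907 at promoters, 2506 in exons and 1667 at gene ends. In all, 7884 merged regions were intergenic by these distances. Of these, 3947 were called in 1 library, 582 were called in all 9, and 12 were called in 2 to 8 libraries but were too wide. All 3343 members are described, with no further filter on low values.

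Because the members were selected on the number of libraries that called them, that number is a description and not a finding. Among the members, 1219 were called in 2 libraries, 641 in 3, 422 in 4, 341 in 5, 235 in 6, 253 in 7 and 232 in 8. Fold enrichment, the pileup of reads at the summit of a peak over the local background as the peak caller gave it, had a median of 4.99 in members called in 2 libraries and of 6.59 in those called in 8. Just outside these limits it was 4.53 in intergenic regions called in 1 library and 9.44 in those of the same widths called in 9. The median member had a fold enrichment of 5.33, within a range of 3.30 to 41.3, and a width of 764 bases, within a range of 248 to 4910. Together the members covered 3.37 Mb.

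The sequences around the summits of 7 members are printed to show what DNA was recovered. Each is 150 bases of the plus strand of mm9, centred on the summit of the tallest peak, and capitals mark runs of 3 or more G or of 3 or more C. The regions were chosen after their values were seen: a pair past gene ends and 1 before a gene start that were called in most libraries and had no RNase H peak, 3 that also had a peak in every RNase H library, and 1 called in every siEXOSC3 library and in no siDDX1 library.
past Sec14l4, chr11:3952393-3952542: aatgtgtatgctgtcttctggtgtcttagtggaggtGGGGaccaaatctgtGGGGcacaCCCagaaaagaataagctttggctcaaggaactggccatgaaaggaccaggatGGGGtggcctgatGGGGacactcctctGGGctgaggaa
past Srcap, chr7:134681924-134682073: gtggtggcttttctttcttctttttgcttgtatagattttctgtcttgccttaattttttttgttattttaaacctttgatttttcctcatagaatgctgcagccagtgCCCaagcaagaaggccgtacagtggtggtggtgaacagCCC
before Pcif1, chr2:164702615-164702764: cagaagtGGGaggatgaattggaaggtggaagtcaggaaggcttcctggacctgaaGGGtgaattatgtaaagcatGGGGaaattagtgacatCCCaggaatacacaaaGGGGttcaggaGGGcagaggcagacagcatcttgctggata
before Glycam1, RNase H peak, chr15:103410791-103410940: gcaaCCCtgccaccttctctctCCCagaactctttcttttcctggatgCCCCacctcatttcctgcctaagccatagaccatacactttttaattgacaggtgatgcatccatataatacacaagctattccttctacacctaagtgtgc
before Irx4, RNase H peak, chr13:73278653-73278802: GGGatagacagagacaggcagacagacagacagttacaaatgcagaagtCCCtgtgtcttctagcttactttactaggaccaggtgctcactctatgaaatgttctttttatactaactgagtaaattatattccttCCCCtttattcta
before Mki67, RNase H peak, chr7:143365135-143365284: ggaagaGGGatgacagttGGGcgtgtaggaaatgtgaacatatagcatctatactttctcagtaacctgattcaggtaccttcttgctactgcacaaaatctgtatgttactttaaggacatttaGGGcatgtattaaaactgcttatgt
past Cdk16, chrX:20279327-20279476: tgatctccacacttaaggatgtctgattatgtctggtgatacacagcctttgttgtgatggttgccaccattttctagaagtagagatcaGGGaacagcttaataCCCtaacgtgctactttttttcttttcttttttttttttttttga

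The stretch past Sec14l4 held 5 runs of G and 1 run of C on this strand and was 53.3% G or C, and the stretch before Pcif1 also held 5 runs of G and 1 of C at 49.3%. The stretches past Srcap and before Mki67 were 40.7% and 38.7% G or C and held 2 runs of C and 3 runs of G, respectively. Each of the 7 held 0 or 1 CpG. These examples were picked and were not compared with the members as a whole, whose composition is described below in wider windows.

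The members lay close to genes, and more often past gene ends than before gene starts. For 2103 members (62.9%) the nearest protein-coding boundary was within 10 kb. Of the eligible sequence, which is all intergenic sequence that meets the same limits on distance (1457 Mb), 14.4% lay that close. Unknown bases of mm9 were left out of it, but repeated sequence, where reads cannot be placed uniquely, was not. The median distance to the nearest boundary was 5.28 kb for members and 85.1 kb for eligible sequence. Measured to the nearest gene end alone, the median was 9.48 kb for members and 119 kb for eligible sequence, and to the nearest gene start alone it was 18.6 kb and 112 kb. Boundaries within 1 kb were barred by the rule, so the shortest distance was 1001 bases.

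Within 10 kb, 1446 members lay past a gene end and 657 before a gene start, which is 14.4 and 5.98 members per Mb of eligible sequence on the respective side. Over all eligible sequence the density was 2.29 per Mb. The density past ends was the higher in each of the 9 libraries taken alone: the ratio of the density past ends to that before starts ranged from 1.99 to 3.11, with a mean of 2.56 ± 0.411 (SD, n = 9). From 1 to 2 kb past an end there were 31.2 members per Mb, from 2 to 5 kb 17.4, and from 5 to 10 kb 6.66. The corresponding densities before starts were 14.8, 6.28 and 3.19 per Mb. Beyond 10 kb the sides came together, at 2.52 and 2.19 per Mb from 10 to 20 kb and at 0.473 and 0.447 per Mb beyond 100 kb.

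**Figure D1:**
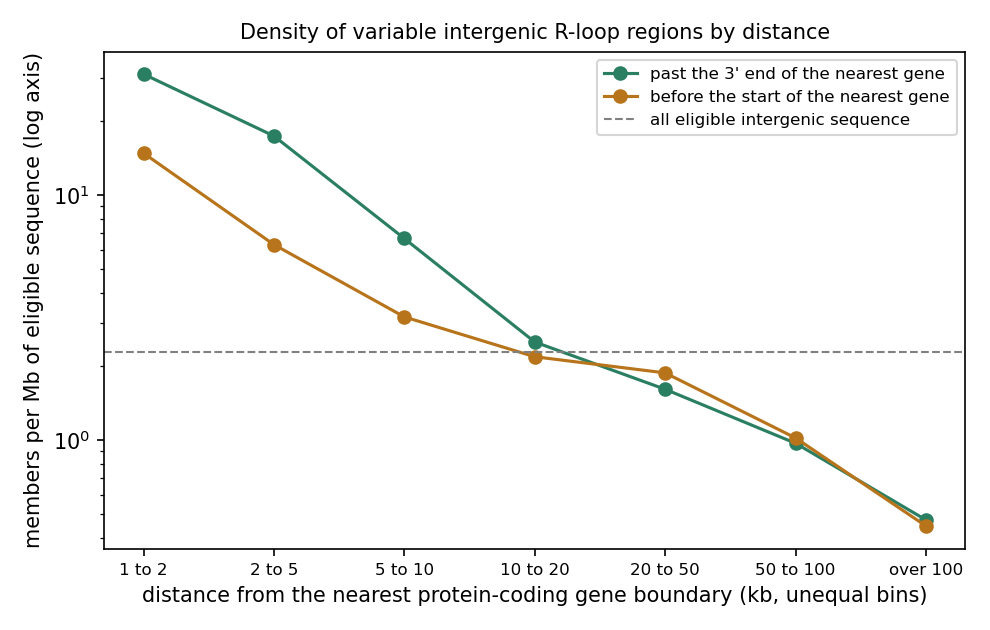
Members per Mb of eligible intergenic sequence (log axis) against the distance to the nearest protein-coding gene boundary (kb, in bins of unequal width), for members past a gene end (green) and before a gene start (orange); the dashed line is the density over all eligible sequence, 2.29 per Mb. The green line starts at 31.2 per Mb and lies above the orange line, which starts at 14.8 per Mb, in all bins up to 20 kb.

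The same fall with distance was present in the intergenic regions called in all 9 libraries, which are not members. Their density from 1 to 2 kb was 4.88 per Mb past ends and 2.26 per Mb before starts, and beyond 100 kb it was 0.0663 and 0.106 per Mb. Members in every bin of distance were called in a median of 3 libraries, except from 5 to 10 kb before starts, where the median was 4.

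The orientation of the flanking genes separated the members in the same way. Within 10 kb, members between convergent genes, where both neighbours end toward the member, had a density of 16.4 per Mb (659 members). Between genes in tandem the density was 9.89 per Mb (1173 members), and between divergent genes, where both neighbours start beside the member, it was 5.30 per Mb (270 members). These densities are descriptions over members, which are not independent of each other.

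Genes that carried a hybrid region over their own start had more members nearby. Past the ends of the 2650 protein-coding genes with a region over the start in all 9 libraries there were 52.9 members per Mb within 10 kb (458 members). Past genes with such a region in 1 to 8 libraries (2763 genes) there were 37.4 per Mb, and past the 16795 genes with none there were 7.60 per Mb. Before starts the densities were 16.6, 22.0 and 2.98 per Mb in that order, so that there the genes with a region in some libraries had the highest density. Members and start regions were called in the same libraries and share their depth, and the part of depth in this relation was not tested.

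Of the members past gene ends that were called in 5 or more libraries and had no RNase H peak, the 5 with the highest mean fold enrichment show the size of the signal in single libraries. This rule was set after the values were seen. The member 5.56 kb past Sec14l4 (ENSMUSG00000019368.7), which encodes a Sec14-like lipid-binding protein, spans chr11:3951627-3955545. Its fold enrichment was 10.5, 12.4 and 9.04 in siScramble, 14.8 and 7.11 in siDDX1 replicates 1 and 3, and 9.32, 9.79 and 7.59 in siEXOSC3. The lone library without a peak there was siDDX1 replicate 2, and the reads at the summit, recovered from the fold enrichment and the p-value, ranged from 10 to 33 in the other 8.

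The member 2.96 kb past Srcap, the gene of the chromatin remodelling ATPase that places histone H2A.Z, spans chr7:134681774-134683917. Its fold enrichment was 12.9, 10.5 and 9.04 in siScramble, 6.54 and 6.48 in siDDX1 replicates 1 and 3, and 4.97, 7.95 and 9.65 in siEXOSC3. It too had no peak in siDDX1 replicate 2. The member 1.24 kb past Scn8a, the gene of a neuronal voltage-gated sodium channel, was 61.7% G or C, and its fold enrichment was highest in siEXOSC3, at 10.1, 9.21 and 15.97, against 6.19, 6.42 and 8.49 in siScramble and 7.36 and 6.01 in siDDX1 replicates 1 and 3. It was chosen for its height among all members and is not tested.

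The member 1.29 kb past Hist2h3c1, a histone H3 gene, had fold enrichments of 9.95, 11.1 and 13.8 in siScramble and 6.83, 9.79 and 8.85 in siEXOSC3, and in siDDX1 it was called in replicate 1 alone, at 10.0. The member 8.88 kb past Olfr748, an odorant receptor gene, was called in all libraries but siScramble replicate 2, at fold enrichments of 4.61 to 12.3. Its sequence is partly repeated: 55.5% of the short words of sequence around its summit occur elsewhere in mm9. Reads there may come from other copies. Before gene starts, the member 1.97 kb from Pcif1, the gene of a methyltransferase that modifies adenosine next to the mRNA cap, was called at 5.86 and 11.1 in siScramble replicates 1 and 2, at 8.73 and 5.53 in siDDX1 replicates 1 and 2, and at 10.6, 9.79 and 10.3 in siEXOSC3. The member 1.06 kb from Zmym5, a zinc finger gene, reached 17.4 in siEXOSC3 replicate 3 and 6.66 to 8.67 in the 5 other libraries that called it. The member 3.19 kb from 1700001K19Rik was called in 8 libraries at 6.59 to 10.5.

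Members also lay in runs. With a gap of up to 20 kb between neighbours and no gene between them, the 3343 members formed 2100 runs, and 1952 members (58.4%) had at least 1 other member in their run. There were 62 runs of 5 or more. A run of 12 members spread over 46.2 kb lay past the end of Vegfa, the vascular endothelial growth factor gene, but not beside it. Its members were 127 to 157 kb from the nearest protein-coding boundary of each, which was not that of Vegfa for all of them. Of these 12, siScramble libraries called 2, 7 and 7, siDDX1 libraries 7, 9 and 6, and siEXOSC3 libraries 1, 0 and 7, and none overlapped an RNase H peak. A second run of 12 members over 50.8 kb began 2.08 kb before the start of Sipa1l2, which encodes a regulator of Rap GTPases. A run of 11 members over 58.4 kb lay past the end of D10Wsu102e. Its members were 12.9 to 58.3 kb from the nearest boundary of each, which was not that of D10Wsu102e for all of them. Another run of 11 lay 1829 to 1891 kb before Pik3c3.

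The protein-coding genes nearest to the most members were Zfp330, a zinc finger gene, with 20, Pik3c3, the gene of the class III phosphatidylinositol 3-kinase, and Sipa1l2, with 16 each, and Steap4, the gene of a metalloreductase, and Vegfa, with 15 each. All 20 members of Zfp330 lay past its end, 20.2 to 178 kb away, and libraries called between 1 and 16 of them. Vegfa alone among these 5 had a region over its start in all 9 libraries. A member is assigned to a gene by distance alone.

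The density of members differed by chromosome, from 0.548 per Mb of eligible sequence on chromosome X to 4.96 on chromosome 11, with 4.25 on chromosome 15 and 3.15 on chromosome 8. As a share of all variable regions, members ranged from 9.01% on chromosome 11 to 15.5% on chromosome 15.

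The 36 axon guidance genes listed for a neuronal line were nearest to 10 members and to 18.8 Mb of eligible sequence, a density of 0.532 per Mb. These were 0.299% of members and 1.29% of eligible sequence. Beyond 100 kb from the nearest boundary, the density over all genes was 0.473 per Mb past ends and 0.447 before starts. Distance was not taken into account for this list, so the lower share does not show fewer members than at other genes with equally distant sequence. Efnb2, the gene of an ephrin ligand, Plxna2, a semaphorin receptor gene, and Robo1, a Slit receptor gene, had 2 each, and Efna5, Epha5, Epha7 and Robo2 had 1 each. The other 29 genes of the list had none.

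The number of members called varied as much within groups as between them. Libraries labelled siScramble called 828, 1798 and 2002 members, those labelled siDDX1 2005, 704 and 1057, and those labelled siEXOSC3 1151, 1406 and 1840. The group means were 1543 ± 627, 1255 ± 673 and 1466 ± 348 members (SD, n = 3 each), and the groups overlapped over most of their range. An exact permutation test on F, with the libraries split into groups in 280 ways, gave p = 0.771 (adjusted p = 0.771, Benjamini-Hochberg over 5 tests). The smallest p these splits allow is 0.00357. No pair of groups could pass, since the smallest two-sided p for 3 against 3 is 0.1.

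Libraries differed in depth and in peak number, whose part in the counts was not tested. They held 23882 to 42571 peaks, and the depth relative to their mean, recovered from the background of each list, was 0.785 to 1.02 in 8 libraries and 1.86 in siDDX1 replicate 1. The number of members called did not follow this depth throughout: siScramble replicate 1, at 1.02, called 828, and siEXOSC3 replicate 3, at 0.799, called 1840. The RNase H-digested libraries stood at 1.62 to 2.30 on this scale. Peaks in members held a median of 7 to 12 reads at the summit, and the fewest summit reads of any called peak were 5 to 7 in the untreated libraries. At this depth a region with no call is a region with no peak past the caller's threshold, and not a region shown to lack a hybrid.

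As a share of the variable regions that a library called, members made up 10.99% ± 0.590 in siScramble (SD, n = 3). They made up 9.97% ± 0.464 in siDDX1 and 11.3% ± 0.984 in siEXOSC3. The libraries stood at 11.7%, 10.7% and 10.6%, at 10.4%, 9.96% and 9.51%, and at 11.5%, 12.2% and 10.2%. The 3 siDDX1 libraries were below the 3 siScramble libraries, and siEXOSC3 spanned both. The difference among groups did not pass (exact permutation test over 280 splits, p = 0.121, adjusted p = 0.202). Without siEXOSC3 replicate 3 the unadjusted p was 0.0286, and without regions that overlap an RNase H peak it was 0.0214.

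The share of called members past gene ends differed little among the groups. The share within 10 kb past a gene end was 44.0% ± 4.36 of the called members for siScramble, 42.0% ± 2.82 for siDDX1 and 44.7% ± 4.32 for siEXOSC3 (SD over 3 libraries). The difference did not pass (p = 0.704, adjusted p = 0.771, exact permutation test), but with members kept 5 kb from starts and ends the unadjusted p was 0.0214. Before gene starts the siEXOSC3 libraries had the larger share: 17.0%, 18.2% and 16.9% of called members in siScramble, 20.0%, 15.3% and 18.3% in siDDX1, and 22.2%, 22.9% and 19.9% in siEXOSC3. The lowest siEXOSC3 library, replicate 3, lay just below siDDX1 replicate 1 and above all other libraries of those groups. This difference did not pass the test (p = 0.0679, adjusted p = 0.170, exact permutation test over 280 splits). Leaving out siDDX1 replicate 1 or replicate 2 brought the unadjusted p to 0.0464 and 0.0357, and it was 0.0107 with peaks up to 1000 bases apart joined or with 50% of a region required for a call.

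**Figure D2:**
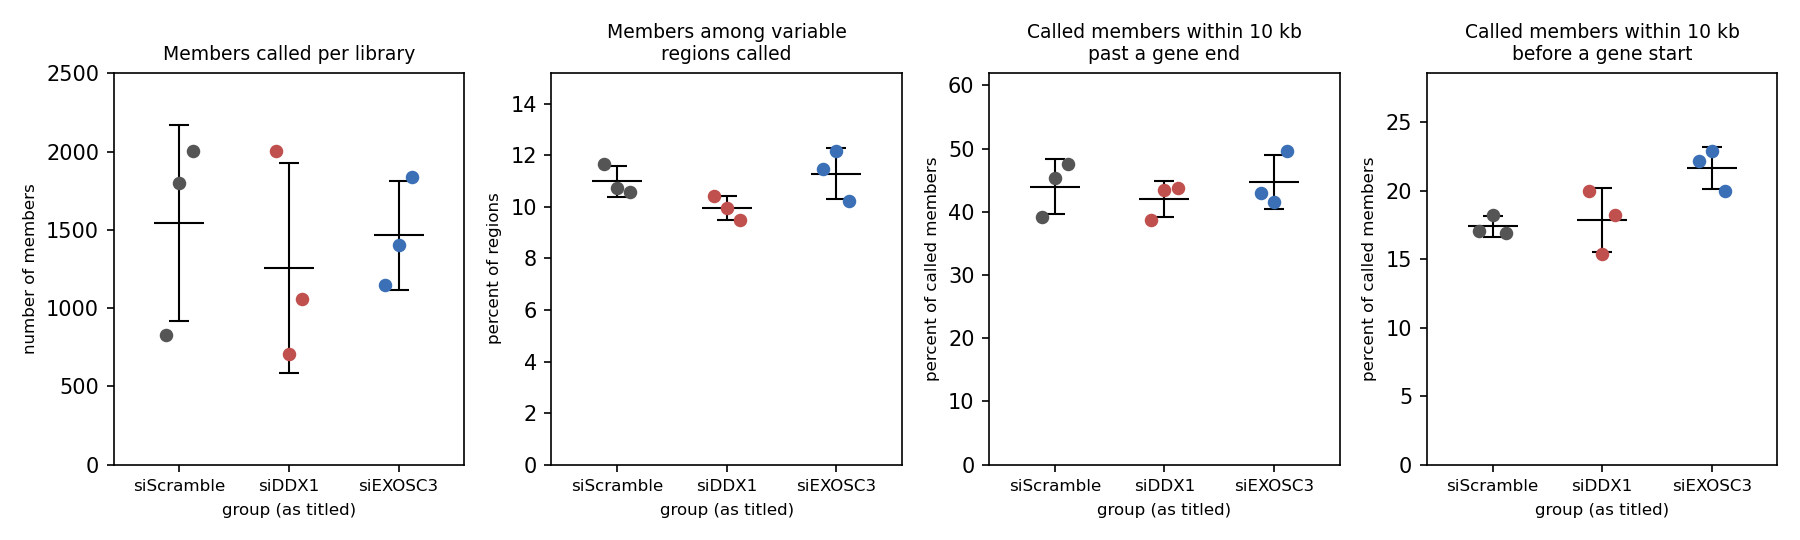
Values of the 3 libraries of each group, as titled (dots), with the mean (bar) and SD (whiskers). From left to right, the number of members called, the percent of called variable regions that were members, and the percent of called members within 10 kb past a gene end and before a gene start; the groups overlap in the panels of called members and of gene ends, and in the last panel the siEXOSC3 libraries, at 19.9% to 22.9%, lie at or above nearly all the others.

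Libraries of the same group shared slightly more members than libraries of different groups. The Jaccard index, the members called in both libraries over those called in either, had a mean of 0.323 for the 9 pairs from the same group and 0.296 for the 27 pairs from different groups. Within siDDX1 it was 0.277, below the mean of pairs from different groups, and within siScramble and siEXOSC3 it was 0.343 and 0.348. The difference of 0.0272 did not pass a one-sided exact permutation test over the 280 splits (p = 0.0536, adjusted p = 0.170). It was 0.0663 without siDDX1 replicate 1, the deepest library (p = 0.0107, exact permutation test, unadjusted). Without any other library it did not pass, with p from 0.104 to 0.214 (exact permutation test, unadjusted). The difference was smallest, at 0.0157, without siEXOSC3 replicate 1. With the same peak number taken from every library it was 0.0424 (p = 0.00357, the smallest possible), and with peaks up to 1000 bases apart joined or members 5 kb from starts and ends it was 0.0338 and 0.0319 (p = 0.025 each, exact permutation test, unadjusted). Under the remaining settings it did not pass, with p from 0.0536 to 0.0607 (exact permutation test, unadjusted).

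Few members were called in all 3 libraries of a group and in none of another, and their number stood near the share for all variable regions. In all siDDX1 and no siScramble libraries there were 14 members (0.419%, against 0.456% of all variable regions), and in the reverse direction 45 (1.35%, against 0.919%). In all siEXOSC3 and no siScramble libraries there were 50 (1.496%, against 1.24%), and in the reverse direction 44 (1.32%, against 1.17%). In all siEXOSC3 and no siDDX1 libraries there were 47 (1.41%, against 1.15%), and in the reverse direction 26 (0.778%, against 0.896%). The 95% exact binomial interval of each share included the share of all variable regions, apart from the 45 members, whose interval of 0.984% to 1.80% lay above 0.919%. That interval covers counting error over regions that are not independent. The pairs share libraries with each other. A count of this kind grows when 1 of its libraries is left out, since fewer calls are then required, and the libraries with few calls weighed most. Without siScramble replicate 1 the 45 members became 286 (8.93%, against 6.95% of all variable regions) and the 44 became 284 (8.87%, against 8.20%). Without siDDX1 replicate 2 the 14 became 98 (3.08%, against 3.40%) and the 26 became 101 (3.17%, against 4.37%). Without siEXOSC3 replicate 1 the 50 became 155 (4.82%, against 4.18%) and the 47 became 187 (5.82%, against 4.49%).

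The all-or-none members with the highest fold enrichment lay at all distances from genes, and several also had an RNase H peak. A member 48.0 kb before Palm2, a paralemmin family gene, was called in siDDX1 at 5.67, 4.90 and 6.59, in siEXOSC3 replicate 2 at 7.95 and in no siScramble library. A member 155 kb past Impad1 was called in siDDX1 alone, at 6.11, 8.61 and 3.88, and overlapped a peak in all 3 RNase H libraries. A member 302 kb before Ptprd, a receptor tyrosine phosphatase gene, was called in siScramble alone, at 9.38, 8.67 and 9.04. Its sequence is repeated: all 119 words of 32 bases in the 150 bases around the summit occur elsewhere in mm9, with a median of 91 copies, so reads may come from other copies.

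In siEXOSC3 and not in siScramble, a member 7.83 kb past Gpam, the gene of a mitochondrial enzyme of glycerolipid synthesis, stood at 3.73, 6.73 and 10.9 and was also called in siDDX1 replicate 1; it overlapped a peak in all 3 RNase H libraries. A member 974 kb before Robo1 stood at 6.21, 7.34 and 9.65 and was called in siDDX1 replicate 1 too; all its words occur elsewhere as well, with a median of 90 copies. The member 1.93 kb past Cdk16, a cyclin-dependent kinase gene, was called in siEXOSC3 at 6.21, 9.79 and 7.72, in siScramble replicates 2 and 3 at 4.95 and 9.04, and in no siDDX1 library. In the reverse directions, a member 406 kb before Csmd1 was called in siScramble at 9.42, 10.6 and 6.63. It was also called in siDDX1 replicate 1 at 9.72 and in no siEXOSC3 library, and it too overlapped a peak in all 3 RNase H libraries. A member 5.75 kb before Ogdh, the gene of a subunit of the oxoglutarate dehydrogenase complex, was called in siDDX1 at 10.5, 8.61 and 4.53. It stood at 6.19 and 6.03 in siScramble replicates 2 and 3, had no call in siEXOSC3 and overlapped a peak in 1 RNase H library. A member 45.4 kb past Edil3 was called in all siDDX1 and all siScramble libraries and in no siEXOSC3 library. Members near Pias2 and Cables1 completed the list.

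**Figure D3:**
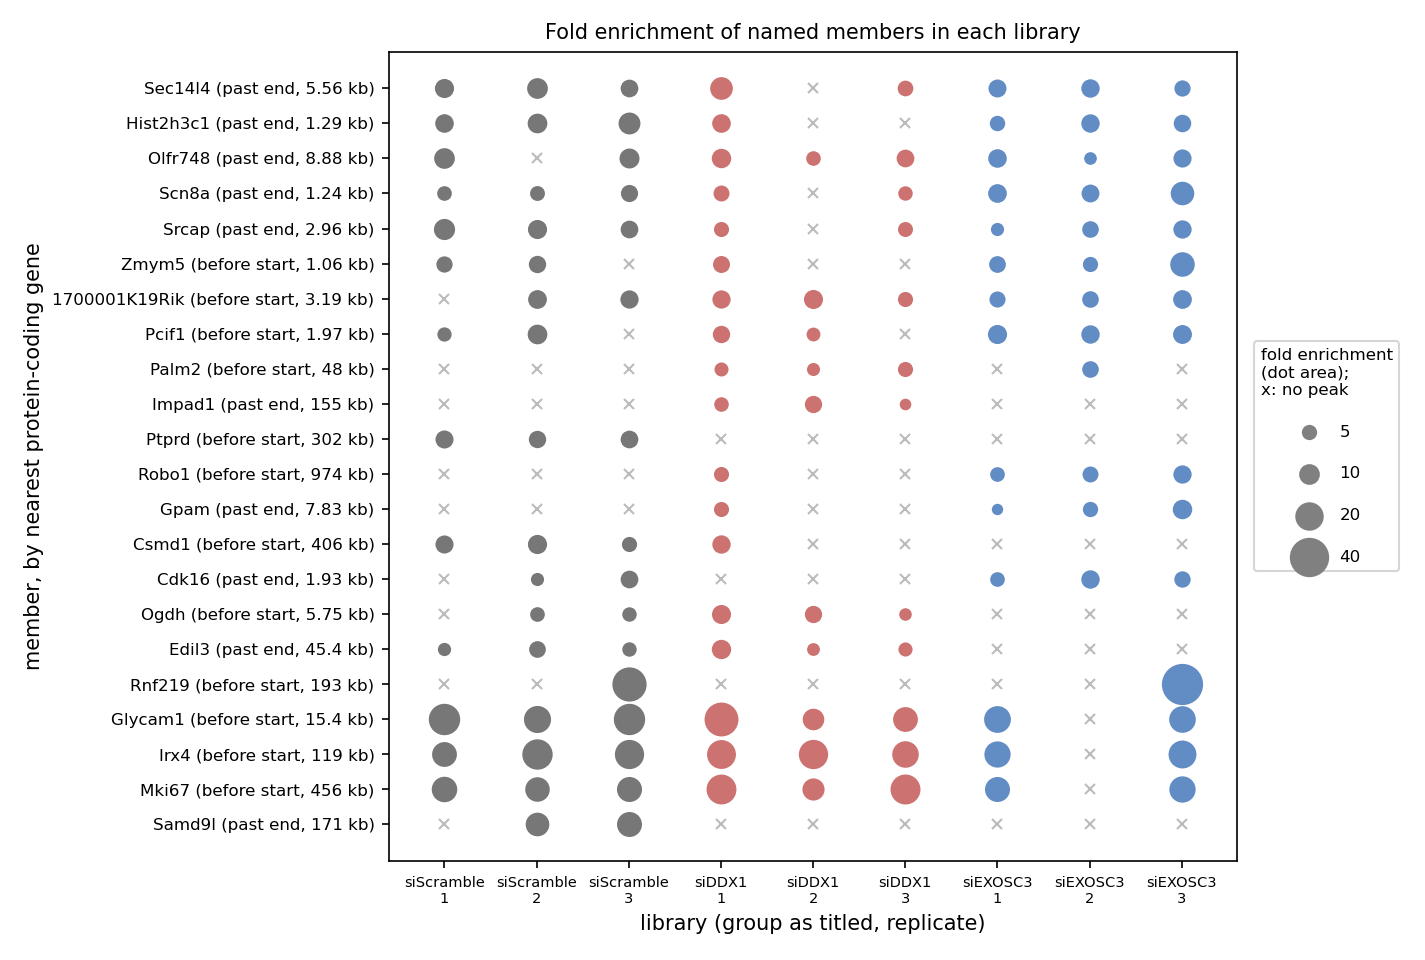
Fold enrichment (dot area) of 22 named members, each given by its nearest protein-coding gene and the distance to it, in the 9 untreated libraries, coloured by group as titled; a cross marks a library without a peak. The upper 8 members are called in most libraries, the next 9 are present in all libraries of a group and absent from another, and the lowest 5, which also had a peak in all 3 RNase H libraries, hold the largest dots, up to 48.9.

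Members carried a peak after RNase H digestion more often than variable regions in or beside genes did. Of the 3343 members, 342 (10.2%, 95% exact binomial interval 9.22% to 11.3%) overlapped a peak of at least 1 RNase H library, against 3.1% of all variable regions. A peak in all 3 was overlapped by 218 members (6.52%), against 1.41% of all variable regions. RNase H removes the RNA of a hybrid, so the signal in these 342 members is not shown to be a hybrid. Counted over the peaks of each library, 8.46% ± 2.70 of peaks in members overlapped an RNase H peak, against 1.599% ± 0.519 of those in variable intron regions (SD, n = 9). The difference of 6.86 percentage points had the same sign in 9 of 9 libraries (exact two-sided sign-flip permutation test, p = 0.00391, the smallest these allow, adjusted p = 0.00938 over 12 tests). Against variable promoter regions, at 1.05%, and gene-end regions, at 0.866%, the differences of 7.40 and 7.59 points were also found in 9 of 9 libraries (adjusted p = 0.00938 each, exact permutation test). For these values per library, each untreated library was set only against the RNase H library of its own group. The 3 untreated libraries of a group thus share 1 RNase H library.

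The share with an RNase H peak was higher the farther the members lay from genes. It was 4.52% (95% interval 3.67% to 5.49%) of the 2103 members within 10 kb of a protein-coding boundary, 14.9% (12.7% to 17.3%) of the 927 members from 10 to 100 kb, and 34.8% (29.6% to 40.4%) of the 313 members beyond 100 kb. It showed no such order by the number of libraries that called a member, with 10.4% of those called in 2, 7.66% of those called in 6 and 11.2% of those called in 8. Intergenic regions called in all 9 libraries stood at 14.8% and those called in 1 at 9.58%. Of the members called in a library, between 5.98% in siEXOSC3 replicate 3 and 15.7% in siScramble replicate 1 overlapped an RNase H peak. The RNase H-digested siScramble library, the deepest of all, had a peak in 316 members, and those of siDDX1 and siEXOSC3 in 261 and 271.

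**Figure D4:**
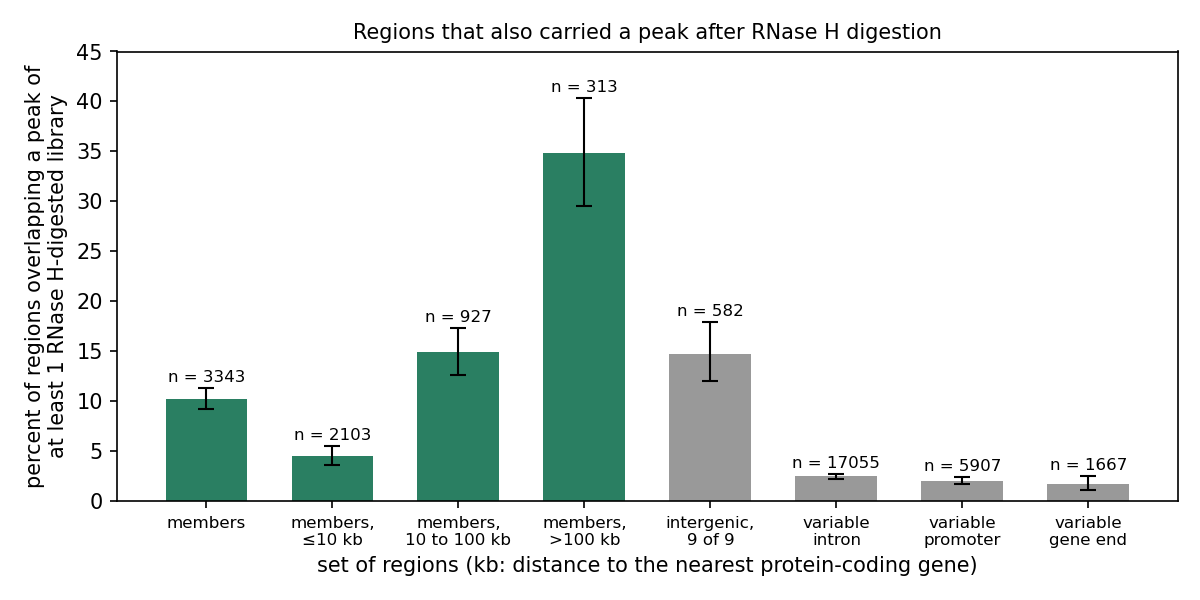
Percent of regions that overlapped a peak of at least 1 of the 3 RNase H-digested libraries, with 95% exact binomial intervals (whiskers) and the number of regions, for the members in all and by distance to the nearest protein-coding gene (green) and for other classes (grey). The share is 34.8% for members beyond 100 kb, 4.52% for those within 10 kb, and at most 2.48% for the 3 variable classes in or beside genes.

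Members of high fold enrichment belonged to this set. A member of 374 bases 15.4 kb before Glycam1, which encodes a mucin-like adhesion molecule, reached 28.4, 21.2 and 28.3 in siScramble, 33.1, 13.4 and 17.7 in siDDX1, and 20.7 and 20.5 in siEXOSC3 replicates 1 and 3. A member 119 kb before Irx4, a homeobox transcription factor gene, stood at 17.8 to 26.6 in 8 libraries, and a member 456 kb before Mki67, the proliferation marker gene, at 14.1 to 25.9. All 3 of these lacked a call in siEXOSC3 replicate 2 alone, although 22 to 93 reads were counted at their summits in the others.

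Of the 232 members called in 8 libraries, 22 had a peak in all 3 RNase H libraries, and the absent call was in siEXOSC3 replicate 2 for 6 of these and in replicate 3 for 7. Of all 232, by contrast, 82 lacked their call in siDDX1 replicate 2 and 54 in siScramble replicate 1, which called the fewest members. The members with the very highest mean fold enrichment lay near Rnf219 and 4930546C10Rik. Both were called in siScramble replicate 3 and siEXOSC3 replicate 3 alone, at 33.8 and 48.9 and at 34.96 and 41.8, and had a peak in 3 and 2 RNase H libraries. A member near Samd9l was called in siScramble replicates 2 and 3, at 16.1 and 17.99, with a peak in all 3 RNase H libraries. Of the 119 words around these 3 summits, 59.7%, 75.6% and 60.5% occur elsewhere in mm9, against 3.36% before Glycam1 and none before Irx4 and Mki67. Values at repeated sequence may hold reads of other copies, and whether all these reads came from mouse DNA was not tested.

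In base composition the members stood between the eligible sequence and the promoters. In windows of 500 bases around their midpoints they averaged 47.0% ± 6.16 G or C (SD over 3343 members), against 40.8% ± 6.20 in 728600 windows of eligible sequence and 43.0% in the eligible windows within 10 kb of a gene. Members within 10 kb past a gene end were at 47.1%, those within 10 kb before a start at 47.5%, and those beyond 100 kb at 43.2%. Over the peaks of each library, the G or C content in members was 46.9% ± 0.681, a difference of -5.76 points from promoter regions and of -1.18 points from gene-end regions (SD, n = 9; lower in 9 of 9 libraries, adjusted p = 0.00938 each, exact permutation test). It was 0.297 points above intron regions in 8 of 9 libraries (adjusted p = 0.0335, exact permutation test). That difference was under the spread among libraries. Its call was lost without siScramble replicate 3 (0.209 points), siDDX1 replicate 1 (0.245) or 2 (0.219), or siEXOSC3 replicate 2 (0.251) or 3 (0.281), and the sign turned with a −log10 q of at least 5 (-0.0186).

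CpG-rich members were few but more frequent than in the surrounding sequence. The ratio of observed to expected CpG exceeded 0.6, the usual limit for a CpG island, in 114 members (3.41%), in 0.645% of eligible windows, and in 33.4% of variable promoter regions. It did so in 1.38% of members within 10 kb past ends, in 3.96% of those before starts and in 5.75% of those beyond 100 kb. The named members beyond 100 kb with such a ratio lay near Ptprd, Rnf219, 4930546C10Rik and Samd9l. At these, 59.7% to 100% of the words around the summit occur elsewhere in mm9. Those near Scn8a and Zmym5, close to genes, also had such a ratio and no repeated words. The member past Olfr748 had such a ratio too, but 55.5% of the words around its summit occur elsewhere. The part of repeated sequence in these shares was not tested. A G-quadruplex motif, 4 runs of at least 3 G with loops of 1 to 7 bases, searched on both strands, was in 10.9% of members, 8.21% of eligible windows and 23.2% of promoter regions.

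The strand of the nearest gene was barely visible in the composition. GC skew, the excess of G over C on the strand of the gene divided by their sum, averaged 0.00838 ± 0.130 (SD) in the 1446 members within 10 kb past ends, and 767 of them (53.0%) were positive. Before starts it averaged 0.00151 ± 0.135 over 657 members. Without regard to strand, the mean absolute skew was 0.107 in members and 0.114 in eligible windows, and it was 0.164 in the 342 members with an RNase H peak and 0.1004 in the other 3001. Tandem repeats, units of up to 6 bases repeated over at least 24 bases, were in 16.1% of the members with an RNase H peak, in 8.43% of the others and in 11.8% of eligible windows.

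Many members began or ended at a restriction site of the enzymes that cut the DNA before the pulldown. An edge of the region coincided with the cut of BsrGI (TGTACA), EcoRI (GAATTC), HindIII (AAGCTT), SspI (AATATT) or XbaI (TCTAGA) in 2163 members (64.7%), and both edges did in 331 (9.90%). When the left edge was moved by 300 bases, 0.150% coincided, against 37.5% at its true place. Variable intron regions had a cut at an edge in 62.2%. A cut site lay within the 500-base window in 31.1% of members and in 59.5% of eligible windows. At an edge that coincides with a cut, the peak does not resolve how far the hybrid reached.

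Fold enrichment and width set the members little apart from other variable regions. The median log2 fold enrichment per library was higher in members than in intron regions by 0.02, higher in 7 libraries and tied in 2 (adjusted p = 0.0313, exact permutation test), a difference of 5.26 to 5.17 on the linear scale. This call was lost when siScramble replicate 1, siDDX1 replicate 1 or siDDX1 replicate 2 was left out (p = 0.0625 each, exact permutation test, unadjusted). The differences from promoter regions (-0.05) and gene-end regions (-0.01) did not pass (adjusted p = 0.0885 and 0.5625, exact permutation test). Peak width, 435 bases in members against 430, 457 and 445 bases in intron, promoter and gene-end regions, did not pass in any comparison (adjusted p = 0.170, 0.0885 and 0.131, exact permutation test).

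The cell type label could not be checked by these markers. Of 12 genes that mark neuroblastoma or sympathetic neurons, Phox2a, a transcription factor of noradrenergic neurons, and Tubb3, a neuronal tubulin, had a hybrid region over their start in all 9 untreated libraries and Gata2 in 7, whereas the other 9, among them Th and Dbh, had none. Of 8 marker genes of other cell types, 7 had none, and Gfap, an astrocyte gene, had a region in 4 libraries. Of all protein-coding genes, 11.9% had a region over the start in all 9 libraries and 12.4% in some, so the neuroblastoma markers did not stand above other genes, and an R-loop region is no measure of expression.

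The members farthest from any annotated gene, of whatever type, were 824, 734 and 729 kb away, the last 2 near each other and over 1 Mb past Fam135b. Both were called in few libraries, 2 and 4, at mean fold enrichments of 4.71 and 6.06, and neither overlapped an RNase H peak. The member at 824 kb, before Pik3c3, was called in 2 siEXOSC3 libraries and overlapped a peak in all 3 RNase H libraries. Of the words around the summits, 31.9% at 824 kb and 35.3% at 734 kb occur elsewhere in mm9, against none at 729 kb. At the former pair, reads may come from other copies. The 3 widest members, of 4910, 4880 and 4751 bases, lay 77.5 kb past Pcdh1, 3.85 kb before Mtus1 and 3.29 kb before Avpi1.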

How the data were processed

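Peak lists of 9 untreated and 3 RNase H-digested DRIP-seq libraries were used; the input sample was not analysed here. Per the submitters' processing notes and the study's methods, the authors aligned reads to mm9 with Bowtie2 2.4.4 and called peaks in each library against input with MACS2 2.2.6. The deposited columns used are the fold enrichment (a linear ratio) and the −log10 p-value and −log10 q-value of each peak. The authors' own tests of read counts were not used here. Summit reads were solved from the fold and the −log10 p, which gave whole numbers within 0.02% for at least 99.5% of peaks in each list, and give relative depth only.

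Peaks that overlapped or touched were merged, and 1 base of overlap with a peak sufficed for a call. Each peak's nearest gene is the nearest protein-coding boundary of GENCODE vM1. Groups follow the sample titles. Libraries were compared by exact permutation tests (280 splits of 3 groups, 20 assignments of a pair, 512 sign flips), with Benjamini-Hochberg adjustment within families of 5, 6 and 12 tests and a threshold of 0.05. Intervals are 95% exact binomial and cover counting error only; depth is unknown in absolute terms, so precision rests on the number of libraries.

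The members, gene lists and tests were chosen with earlier results of these data known. Named regions were the 2 highest all-or-none members in each direction, the 5 with the highest fold, the 3 farthest from any gene, up to 5 with a peak in all RNase H libraries, the 5 longest runs and the 3 widest; 1 of these runs is not reported here. After the values were seen, the 32-base words around named summits were counted in mm9 on both strands. The replicate numbers did not pair the libraries: same-numbered libraries of different groups correlated at -0.0449 to 0.0614. The scripts were tested on simulated data. Analyses used Python 3.11.15, numpy 2.4.6, scipy 1.17.1 and matplotlib 3.10.9.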

Additional observations from a re-analysis of the deposited data

How the results depend on the processing

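The 30 results were recomputed under 8 other settings and without each library in turn. Of 511 values, 401 kept their direction and their side of the unadjusted threshold of 0.05 (counts: within 1.5 times). The difference in RNase H overlap from each class of region, and in G or C content from promoter and gene-end regions, did so in every setting run. The other values are given here, and the cause was not tested for any of them. With a −log10 q of at least 5 there were 1932 members. Then the log2 fold difference from intron regions was 0.00533 and lost its call, that from promoter regions was -0.0458 and gained it, the log2 width differed by -0.0381 (reversed), -0.168 and -0.124 from intron, promoter and gene-end regions (the latter pair now past the threshold), the G or C difference from intron regions was -0.0186, and the share of members, siEXOSC3 against siScramble, turned to -0.157 points. All siEXOSC3 and no siScramble libraries then called 22 members (1.14%, against 1.12% of all variable regions). All siDDX1 and no siEXOSC3 libraries called 10 (0.518%, against 0.677%). With peaks up to 1000 bases apart joined there were 2070 members, and p fell to 0.0107 for the share before gene starts (exact permutation test). The overlap within groups was 0.0338 and passed. The log2 number called, siEXOSC3 against siScramble, was 0.0127 against -0.000449 in the report. The log2 fold difference from introns was 0.0222 with no call, and the width difference 0.0431 passed. There were 9 members in all siDDX1 and no siScramble libraries (0.435%, against 0.567% of all variable regions). In the reverse there were 20 (0.966%, against 0.797%).

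With 50% of a region required, p was 0.0107 for the share before starts. The share of members, siEXOSC3 against siScramble, was then -0.455 points, the fold differences were 0.0252 (intron, call lost), -0.0778 (promoter) and -0.0532 (gene end), both now past the threshold, the width differences -0.00211 (reversed), -0.204 and -0.146 (both past it), and the G or C difference from introns 0.0330 (call lost). The all-or-none counts were 7, 29 and 24 for siDDX1 over siScramble, the reverse and siEXOSC3 over siScramble, and 16 for siDDX1 over siEXOSC3. With 5 kb from starts and ends there were 1590 members, p was 0.0214 for the share past ends and 0.0464 for that before starts, the overlap 0.0319 passed, the share of members turned to -0.299 points, the width difference from introns was 0.0356 (past the threshold), and the fold difference from gene ends turned to 0.0172. The counts were 7 for siDDX1 over siScramble (0.440%, against 0.456% of all variable regions) and 23 for its reverse (1.45%, against 0.919%). They were 22 for siEXOSC3 over siScramble (1.38%, against 1.24%). For siEXOSC3 over siDDX1 there were 17 (1.07%, against 1.15%), and for its reverse 15 (0.943%, against 0.896%). With an equal peak number there were 2145 members, and the overlap was 0.0424 (p = 0.00357, exact permutation test). The fold differences were 0.0268 (intron, call lost) and 0.00666 (gene end, reversed). The width differences were -0.0150 (reversed), -0.121 and -0.0636 (both past the threshold), and the G or C difference from introns 0.0856 (call lost). The counts over siScramble were 26 for siDDX1 (1.21%, against 1.05% of all variable regions) and 33 for siEXOSC3 (1.54%, against 1.66%).

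Without chromosomes 8 and 15 the log2 number called, siEXOSC3 against siScramble, was 0.0128, and the width difference from promoters, -0.0714, passed. Without regions that overlap an RNase H peak that number was 0.00675, and p for the share of members was 0.0214 (exact permutation test). The fold difference from introns was then 0.0173 (call lost), and 17 members were in all siDDX1 and no siEXOSC3 libraries (0.566%, against 0.870% of all variable regions). With no width limit no result changed its call. With the replicate block, which the replicate numbers do not warrant here, p was 0.806, 0.111, 0.417 and 0.111 for the number called, the share of members and the shares past ends and before starts (exact permutation test), and it changed no call.

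Leaving out each library in turn moved p for the share of members between 0.0286 (without siEXOSC3 replicate 3) and 0.336, and p for the share before starts between 0.0357 (without siDDX1 replicate 2) and 0.161, with 0.0464 without siDDX1 replicate 1. The overlap within against between groups ran from 0.0157 to 0.0663 (without siDDX1 replicate 1, the lone leave-out that passed). The log2 number called ran from -0.766 to 0.0129 for siDDX1 against siScramble (above 0 without siDDX1 replicate 2 alone), from -0.411 to 0.254 for siEXOSC3 against siScramble (above 0 in 6 of 9), and from -0.0101 to 0.732 for siEXOSC3 against siDDX1 (below 0 without siDDX1 replicate 2 alone). The share of members, siEXOSC3 against siScramble, ran from -0.205 to 0.783 points (below 0 without siEXOSC3 replicate 2). The log2 fold difference from introns ran from 0.0210 to 0.0334, the G or C difference from introns from 0.209 to 0.333 points, with its call lost without siScramble replicate 3, siDDX1 replicate 1 or 2, or siEXOSC3 replicate 2 or 3, and the log2 width difference from gene ends from -0.0371 to -0.0153 (past the threshold without siScramble replicate 1). The all-or-none counts ran from 14 to 98 and from 45 to 286 for siDDX1 over siScramble and its reverse, from 50 to 155 and from 44 to 284 for siEXOSC3 over siScramble and its reverse, and from 45 to 187 and from 26 to 101 for siEXOSC3 over siDDX1 and its reverse. The median member peak held 7 to 12 reads at its summit per library, which limits the precision of its fold enrichment.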
